A study of Mus musculus with 8 samples.

Results

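The 35 genes described here encode the enzymes that make and interconvert purine, pyrimidine and deoxynucleotides, and they were chosen by name from textbook pathways, with earlier results of these data known. All 35 were found among the 15681 genes of the deposited table, and all 35 passed the filter on low values that left 12441 genes for testing. They were set in 5 groups by role: 12 enzymes of de novo purine synthesis, 5 of de novo pyrimidine synthesis, 7 of salvage, 8 of deoxynucleotide (dNTP) supply, and 3 kinases of nucleotide interconversion.

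The study measured RNA in mature B cells sorted from the spleen of mice aged 8 to 10 weeks and activated in culture with the bacterial lipopolysaccharide LPS at 20 µg/ml and the cytokine IL-4 at 20 ng/ml until harvest at 72 h. Control cells were heterozygous, without the labels naming the allele that was heterozygous, and were set against cells lacking Myc (Myc_KO), lacking Max (Max_KO) or lacking both (double_KO), with 2 libraries in each of the 4 groups. The labels name neither the Cre driver nor the alleles, and leave unsaid if each library is its own mouse; p-values then reflect just the scatter among the libraries, which may be technical. The series' title sets as its question how Myc and Max work together as B lymphocytes differentiate.

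For 2 libraries the labels contradict each other. The library labelled Myc_KO replicate 1 by its description is titled as a double knock-out. The library labelled double_KO replicate 2 is titled as a Myc knock-out. The column names of the deposited table give the titles' genotypes. Max RNA stood at 55.0 and 54.5 reads per 1000000 of effective library size (RPM) in the controls and at 16.4 and 15.5 RPM in Max_KO. It stood at 28.6 RPM in the library labelled Myc_KO replicate 1 and 70.4 RPM in replicate 2, and at 31.2 RPM in double_KO replicate 1 and 59.8 RPM in the library labelled double_KO replicate 2, so it went against the description in both disputed libraries. Myc RNA was 111 and 116 RPM in the controls, 192 and 176 RPM in Max_KO, and 38.7 to 55.7 RPM in the other 4 libraries, which does not separate the readings. Values below are given by the description, with the titles' reading beside any call that differs, and the counts that set all 6 knock-out libraries against both controls need neither reading.

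In a cell, nucleotides are either built from small precursors (de novo synthesis) or recovered from free bases and nucleosides (salvage). Purine synthesis builds inosine monophosphate on a ribose phosphate and then branches to adenine and guanine nucleotides, pyrimidine synthesis builds uridine monophosphate, and ribonucleotide reductase converts ribonucleotides to the deoxynucleotides needed for DNA. Activated lymphocytes raise these pathways to copy their DNA, and Myc, which binds the DNA motif CACGTG (an E-box) as a dimer with Max, is known as a regulator of several of these genes.

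In the knock-out libraries the enzymes went both ways, as all genes did. With the authors' scaling the share that was lower was above that of all genes, and the share that was higher was below it. Of the 35 enzymes, 16 were lower in all 6 knock-out libraries than in both controls, 8 were higher in all 6, and 11 overlapped. Over all 12441 genes tested, 26.4% were lower and 29.2% higher in this sense, against 45.7% and 22.9% of the enzymes. Lower were Impdh1, Impdh2, Paics and Adsl of purine synthesis, Umps of pyrimidine synthesis, the salvage enzymes Uck1, Uck2, Hprt, Aprt and Tk1, the dNTP enzymes Tyms, Dut, Dtymk and Dctpp1, and the kinases Nme1 and Nme2. Higher were Ppat and Prps2 at the entry of purine synthesis, Ctps2, Dck, Rrm2, Rrm2b, Samhd1 and Cmpk1. With all libraries scaled to the same total, which moves the median of all genes up by 0.106 to 0.14 on the log2 scale against control, 13 enzymes were lower and 13 higher (all genes 20.1% and 36.6%).

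**Figure D1:**
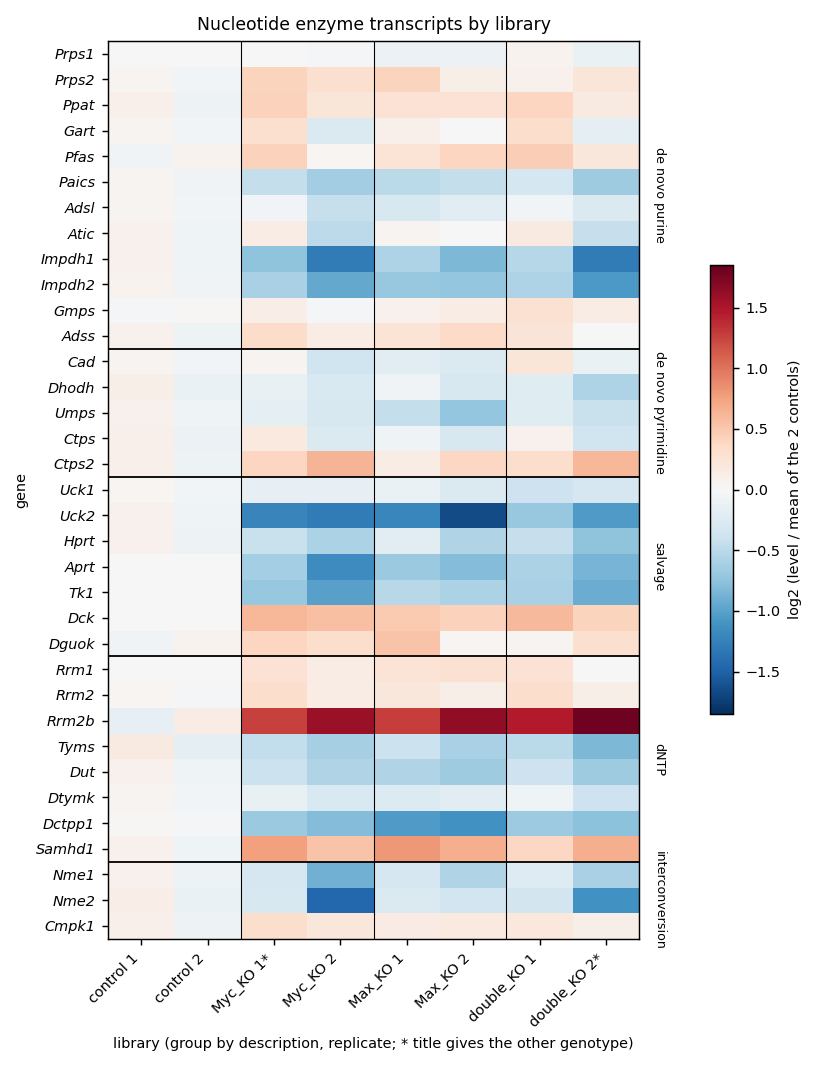
Level of each of the 35 enzymes in each of the 8 libraries, as log2 of its RPM over the mean of the controls, with genes in rows by role and libraries in columns; an asterisk marks the 2 libraries whose title gives another genotype. Of the 35 genes, 16 are lower and 8 higher in all 6 knock-out libraries than in both controls.

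The letters CACGTG lie near the start of 6 members in the RefSeq promoter windows of GRCm38.p6, and these matches are shown because this motif is the one Myc and Max bind. The windows run from 250 bases before to 50 bases after the annotated start and were given for 32 of the 35 members, all but Pfas, Dhodh and Rrm2b. The motif reads the same on both strands, and 30 bases around each match are printed on the gene's strand, with the motif in capitals.
Impdh2 (chr9:108560314-108560343, + strand, motif 110 bases before the start): gagctcgataagCACGTGgttacccagctc
Paics (chr5:76951087-76951116, + strand, 203 bases before): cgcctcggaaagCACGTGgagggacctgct
Atic (chr1:71557137-71557166, + strand, 7 bases before): ggacctcggggtCACGTGgggtcgacacgc
Tyms (chr5:30073669-30073698, - strand, 61 bases before): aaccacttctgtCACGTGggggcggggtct
Dtymk (chr1:93802065-93802094, - strand, 148 bases before): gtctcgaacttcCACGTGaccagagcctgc
Nme1 (chr11:93968273-93968302, - strand, 18 bases before the upstream of its 2 starts): gctgcggggaacCACGTGaggccggggagc
Nme1 (chr11:93968037-93968066, - strand, 29 bases before the other start): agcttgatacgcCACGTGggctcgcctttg
The motif was in the windows of 6 of 32 members (18.8%), of 12.1% of the 9302 tested genes with a window, and of 7.15% of all 32851 windows. Impdh2, Paics, Tyms, Dtymk and Nme1 were lower in all 6 knock-out libraries than in both controls, and Atic overlapped. Of the 26 members whose window lacks these letters, 11 were lower and 7 higher. Over all tested genes the share that was lower was 23.7% of the 1127 with the motif and 27.4% of the 8175 without it. The RefSeq starts need not be those of the gene annotation. The Impdh2 match and both Nme1 matches lie inside the annotated genes of those names. The Atic match spans the annotated start of Atic, and the Paics match lies inside its neighbour Ppat. A match describes the letters and says nothing of binding.

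Against control, 11 of the 35 enzymes fell and 5 rose in Myc_KO, 9 fell and 3 rose in Max_KO, and double_KO had 11 falls and 4 rises (limma, adjusted p under 0.05 over all 12441 genes). In Myc_KO 18.7% of all genes tested were called lower and 22.3% higher. In Max_KO these shares were 16.7% and 21.5%, and in double_KO 19.0% and 23.4%. The share of enzymes called lower was therefore above that of all genes in each comparison and the share called higher was below it. The median log2 change of the 35 was -0.16 in Myc_KO, -0.18 in Max_KO and -0.14 in double_KO, against 0.01, 0.02 and 0.02 over all genes tested. The comparisons share their control libraries. Impdh2, Paics, Uck2, Aprt, Tk1, Tyms, Dut and Dctpp1 were called lower in all 3 comparisons, Dck, Rrm2b and Samhd1 were called higher in all 3, and 17 enzymes were called in none. With the groups of the titles, 16 were lower and 4 higher in Myc_KO (all genes 21.4% and 24.0%), 12 and 7 in Max_KO (17.4% and 22.4%), and 10 and 10 in double_KO (16.8% and 21.9%). The control and Max_KO libraries are the same under both readings, so the log2 changes in Max_KO are identical. Calls in Max_KO differ between the readings through the spread, which is estimated over all groups. For Impdh1 in Max_KO the SE was 0.259 by the description and 0.129 by the titles.

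The counts lean on single libraries more than the directions do. Without control replicate 1, 4 enzymes were called lower in Myc_KO, 2 in Max_KO and 4 in double_KO, and without control replicate 2 the counts were 8, 6 and 7. The count of lower calls was 5 in Myc_KO without its replicate 2, 3 in Max_KO without its replicate 2, and 4 in double_KO without the library labelled double_KO replicate 2. Without the 2 disputed libraries, 15 fell and 4 rose in Myc_KO, 11 and 6 in Max_KO, and 6 and 3 in double_KO. The titles also number the libraries, from 32 to 38 and from 42 to 44. By the description both controls and both Myc_KO libraries are in the first series and both double_KO libraries in the second. With the series as a term no enzyme was called in double_KO and 3 fell in Max_KO. That term rests on the difference between the 2 Max_KO libraries alone, so this fit has little precision to set double_KO apart from the series. Of 20 alternatives in all, Uck2, Aprt, Tk1, Dctpp1, Dck, Rrm2b and Samhd1 kept their call in Myc_KO in each, and so did Uck2, Dctpp1, Rrm2b and Samhd1 in Max_KO. In double_KO 0 of the 15 calls were kept in each, as the fit with the series called no enzyme there. All 16, 12 and 15 enzymes called kept the sign of their change in each.

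**Figure D2:**
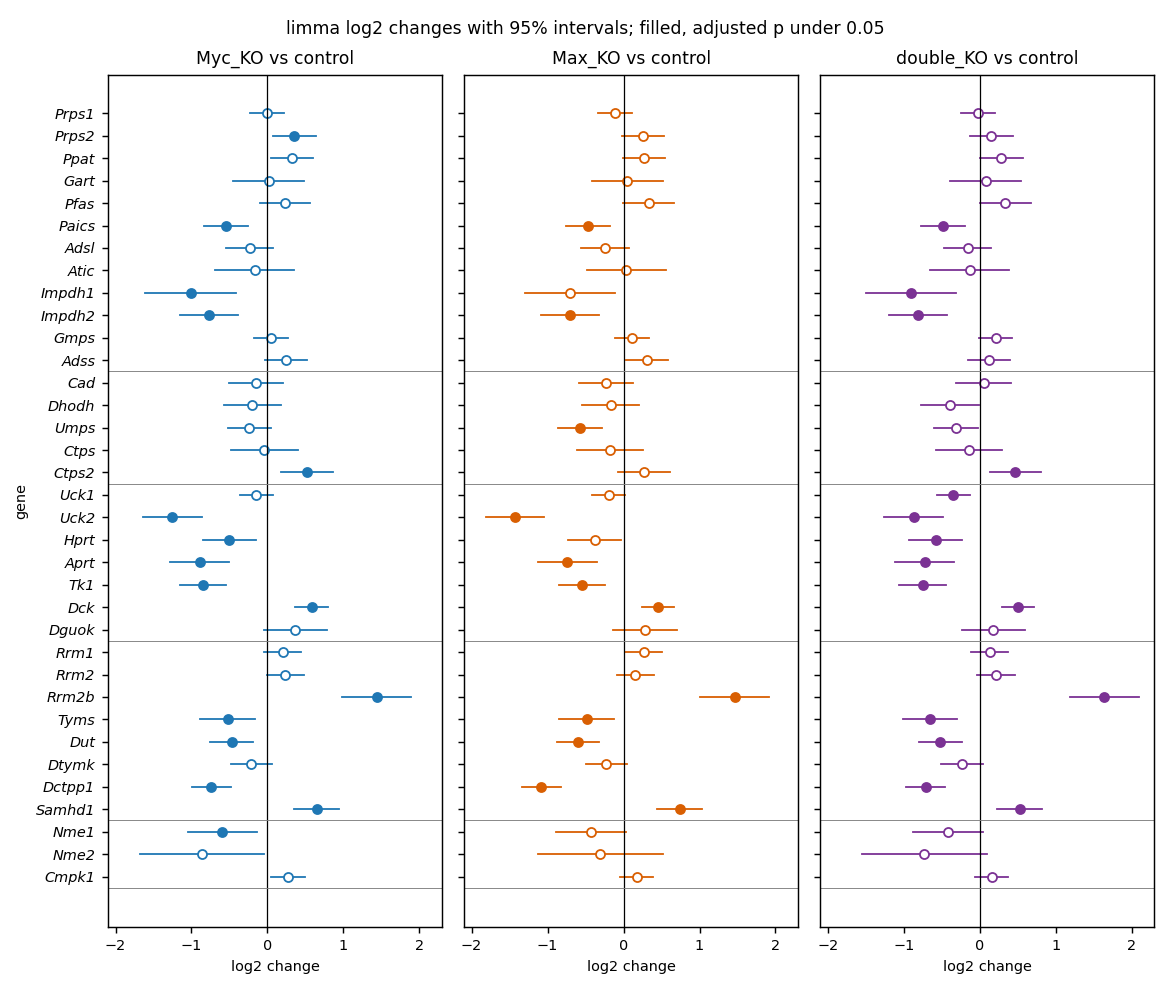
Log2 change of each enzyme against control in Myc_KO, Max_KO and double_KO by the description, with 95% intervals from the fit over all genes (2 libraries a group); filled points have an adjusted p under 0.05. Filled points lie below 0 for Uck2, Dctpp1, Aprt, Impdh2, Tk1, Tyms, Dut and Paics in all 3 panels and above 0 for Rrm2b, Samhd1 and Dck.

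Scaling to the same total changed how the calls split, while quantile normalization and median-of-ratios scaling kept more falls than rises. Quantile normalization gave 11 lower and 4 higher in Myc_KO, 12 and 3 in Max_KO, and 12 and 3 in double_KO. Median-of-ratios scaling gave 11 and 4, 11 and 3, and 12 and 4. Scaled to the same total, 8 enzymes were lower and 10 higher in Myc_KO, 8 and 9 in Max_KO, and 10 and 9 in double_KO. The share of calls that were higher was 31.2%, 25.0% and 26.7% of the enzymes' calls with the authors' scaling and 55.6%, 52.9% and 47.4% at the same total. Over all genes it was 54.5%, 56.3% and 55.2%, and then 67.3%, 67.5% and 68.6%. Directions of enzymes with small changes are therefore relative to the authors' scaling. In bulk RNA, fewer cells of a type and less RNA per cell cannot be told apart.

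Measured per kilobase of exon in the controls, the enzymes spanned a wide range. Nme2 was highest at 299.7 ± 35.4 RPM per kb (SD, n = 2), followed by Impdh2 at 202 ± 11.9 and Hprt at 141 ± 11.7 RPM per kb. Rrm2b was lowest at 2.05 ± 0.286 RPM per kb. The fewest reads behind any of the enzymes' levels were the 136 estimated reads of Rrm2b in control replicate 1.

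Most purine enzymes, like most genes tested, were not called by the description. Of the 12 enzymes of de novo synthesis, 3 fell and 1 rose in Myc_KO, 2 fell in Max_KO and 3 fell in double_KO. Among all genes 18.7%, 16.7% and 19.0% were called lower, and 22.3%, 21.5% and 23.4% higher. The falls were thus near the share of all genes and the rises below it. The arm's median change was 0.00, 0.04 and 0.03 on the log2 scale. The falls lay at Paics, in the middle of the pathway, and at the inosine monophosphate dehydrogenases Impdh1 and Impdh2, which commit inosine monophosphate to guanine nucleotides. With the titles' groups, 5 purine enzymes fell and none rose in Myc_KO, 3 fell and 3 rose in Max_KO, and 3 fell and 4 rose in double_KO, and the median change was -0.145 in Myc_KO, 0.04 in Max_KO and 0.18 in double_KO.

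Impdh2 (chr9:108560286-108565584, GRCm38), the main isoform in dividing lymphocytes, was at 390.2 and 359 RPM in the controls, 246 and 195 RPM in the libraries labelled Myc_KO, 231 and 229 RPM in Max_KO and 252 and 179.8 RPM in those labelled double_KO. Every knock-out library lay below both controls. The log2 changes were -0.77 ± 0.167, -0.70 ± 0.167 and -0.81 ± 0.167 in Myc_KO, Max_KO and double_KO (± SE, here and for the other log2 changes), with adjusted p-values of 0.00778, 0.0124 and 0.00613. Its relative Impdh1 (chr6:29200434-29216364) was at 69.9 and 62.2 RPM in the controls, 39.5 and 27 RPM in the libraries labelled Myc_KO, 44.4 and 37 RPM in Max_KO and 45.6 and 27 RPM in those labelled double_KO. It too was lower in all 6 knock-out libraries, and fell by 1.01 ± 0.259 in Myc_KO and by 0.91 ± 0.259 in double_KO on the log2 scale (adjusted p = 0.0157 and 0.0233), while the change in Max_KO was -0.70 ± 0.259 (adjusted p = 0.0638). With the titles' groups that change had an adjusted p of 0.00379.

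Paics, a bifunctional enzyme that carries out carboxylation and the succinocarboxamide step, and Ppat, the amidotransferase that catalyses the committed first step, lie head to head on chromosome 5 and overlap by 272 bases (chr5:76951307-76951578). In every knock-out library Paics lay below and Ppat above both controls. Paics was at 289.6 and 267 RPM in the controls, 206 and 177 RPM in the libraries labelled Myc_KO, 197 and 205 RPM in Max_KO and 222 and 177 RPM in those labelled double_KO. It fell in all 3 comparisons, by 0.54 ± 0.127, 0.47 ± 0.127 and 0.49 ± 0.127 (adjusted p = 0.0107, 0.0205 and 0.016). Ppat was at 57.3 and 50.4 RPM in the controls, 72.1 and 62.8 RPM in the libraries labelled Myc_KO, 65 and 64.9 RPM in Max_KO and 71.1 and 60.5 RPM in those labelled double_KO. It was above both controls in all 6 knock-out libraries, but its changes of 0.32 ± 0.121, 0.27 ± 0.121 and 0.29 ± 0.121 had adjusted p-values of 0.0624, 0.109 and 0.0892; with the titles' groups it was called higher in Max_KO (adjusted p = 0.0479) and in double_KO (0.00963). The sources used here do not say whether reads were counted by strand, so reads in the overlap cannot be assigned with certainty.

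By the description, the other purine enzymes showed smaller changes than Paics, Impdh1 and Impdh2. Of the phosphoribosyl pyrophosphate synthetases, which supply the activated ribose, Prps2 was at 63.9 and 60 RPM in the controls and between 65.4 and 82.5 RPM in all knock-out libraries, and rose in Myc_KO by 0.35 ± 0.121 on the log2 scale (adjusted p = 0.0463; 0.155 with the titles' groups). Prps1 lay between 54.1 and 62.0 RPM in all 8 libraries. Gart, Pfas and Atic, which act before and after Paics, overlapped between knock-out and control libraries, as did Gmps and Adss, which complete guanosine and start adenosine monophosphate. Pfas ran from 93.0 to 125 RPM in the knock-out libraries against 86.6 and 95 RPM, Gmps from 85.6 to 106 RPM against 85.5 and 88.9 RPM, and Adss from 84.5 to 109 RPM against 90.3 and 79.9 RPM. No comparison called these 3 by the description; with the titles' groups Pfas and Adss were higher in Max_KO (adjusted p = 0.0279 and 0.0375) and in double_KO (0.00886 and 0.0494). Atic shows how much hangs on the labels: it was at 172 and 154 RPM in the controls, 179 and 117 RPM in the libraries labelled Myc_KO, 169.7 and 164 RPM in Max_KO and 182 and 121 RPM in those labelled double_KO. The 117 and 121 RPM are the 2 libraries titled as Myc knock-outs. By the description no comparison called it (adjusted p = 0.583, 0.917 and 0.665), while with the titles' groups it fell by 0.45 ± 0.0818 in Myc_KO (adjusted p = 0.00286). Gart was at 135 and 125 RPM in the controls, 159.5 and 108 RPM in the libraries labelled Myc_KO, 139 and 130.3 RPM in Max_KO and 163 and 115 RPM in those labelled double_KO, and the 2 lowest libraries are again those titled as Myc knock-outs. With the titles' groups Gart was higher in double_KO (adjusted p = 0.0181). Adsl was lower in all 6 knock-out libraries (69.3 to 89.7 RPM against 95.7 and 89.8 RPM), the nearest of them barely. It was called lower in Myc_KO with the titles' groups alone (limma, adjusted p = 0.0149).

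**Figure D3:**
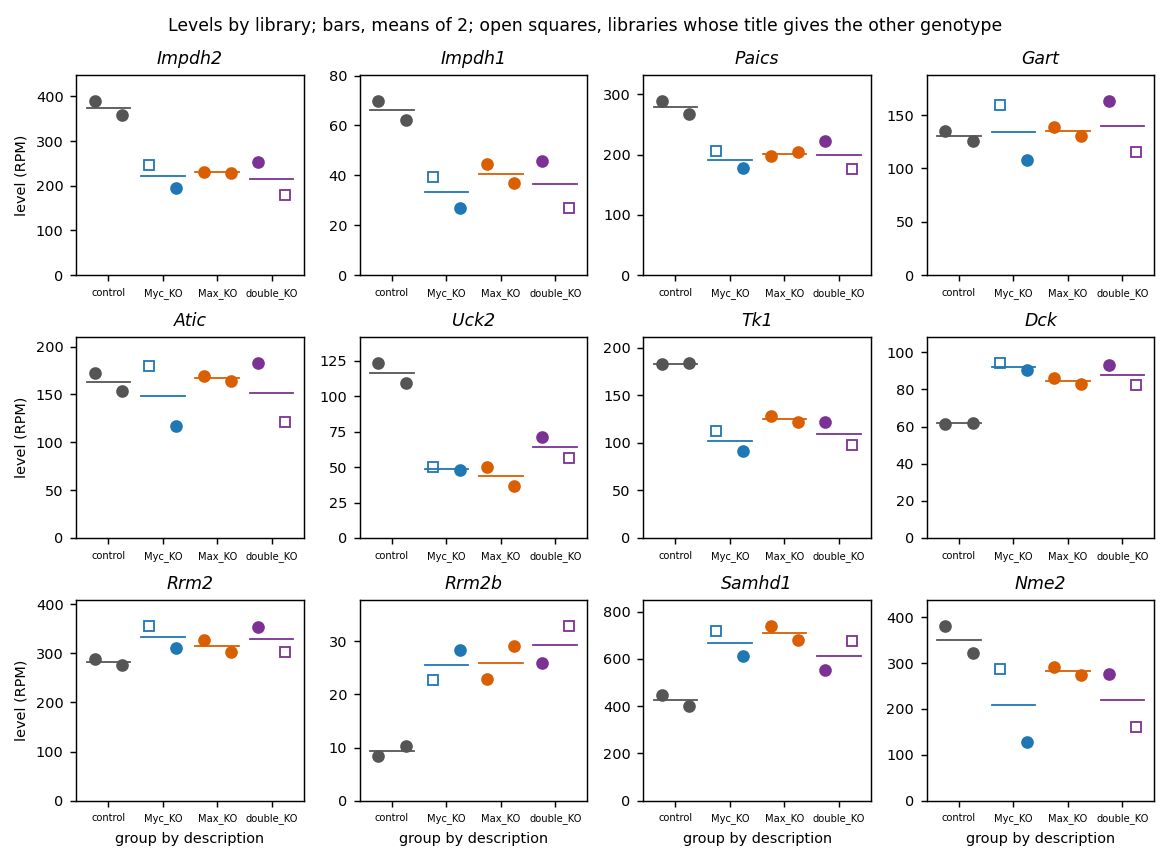
RPM of 12 enzymes in each of the 8 libraries by the description's groups, on linear axes that start at 0; points are libraries, lines are group means and open squares mark the 2 libraries whose title gives another genotype. Impdh2, Paics, Uck2 and Tk1 lie below both controls in all 6 knock-out libraries, and Dck, Rrm2b and Samhd1 lie above.

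Few changes passed the test in de novo pyrimidine synthesis. By the description 1 enzyme was called in each comparison, too few among 5 to set against the shares of all genes given above. Of its 5 enzymes, Ctps2 rose in Myc_KO and double_KO, Umps fell in Max_KO, and no comparison called Cad, Dhodh or Ctps. Cad, the multifunctional protein that carries out the first steps and a well-known Myc target, was at 218 and 203 RPM in the controls, 218 and 164 RPM in the libraries labelled Myc_KO, 184 and 174 RPM in Max_KO and 246 and 193 RPM in those labelled double_KO. By the description Myc_KO and double_KO overlapped the controls, while both Max_KO libraries lay below both controls. The log2 changes were -0.15 ± 0.156, -0.23 ± 0.156 and 0.05 ± 0.156 (limma, adjusted p = 0.453, 0.264 and 0.809). The 95% interval in Myc_KO reached from -0.51 to 0.20 and so included a fall of up to 0.51. With the titles' groups both Myc_KO libraries also lay below both controls, with a change of -0.24 ± 0.104 (limma, adjusted p = 0.091). Dhodh, the mitochondrial dehydrogenase of the pathway, was at 28.6 and 24.4 RPM in the controls, with 17.9 to 25.4 RPM among the knock-outs.

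Umps, which completes uridine monophosphate, was at 91.6 and 81.5 RPM in the controls, 76.3 and 70.4 RPM in the libraries labelled Myc_KO, 63.7 and 52.8 RPM in Max_KO and 74.2 and 65.2 RPM in those labelled double_KO. All 6 knock-out libraries were below the controls, and the fall passed the test in Max_KO (-0.57 ± 0.125, adjusted p = 0.0088), with adjusted p-values of 0.162 in Myc_KO (0.0365 with the titles' groups) and 0.0761 in double_KO; the Max_KO to Myc_KO difference of -0.34 had an adjusted p of 0.377. Ctps and Ctps2 are the cytidine triphosphate synthetases. Ctps2 was at 38.3 and 33.7 RPM in the controls, 47.6 and 55.8 RPM in the libraries labelled Myc_KO, 39.8 and 47 RPM in Max_KO and 45.1 and 54.9 RPM in those labelled double_KO, above both controls in all 6, with changes of 0.52 ± 0.147, 0.27 ± 0.147 and 0.47 ± 0.147 (adjusted p = 0.0236, 0.185 and 0.0336). Ctps ranged from 51.6 to 75.3 RPM in the knock-out libraries around 71.3 and 61.9 RPM in the controls.

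By the description, salvage had the largest share of falls of the 5 groups in each comparison; with the titles' groups the interconversion kinases had a larger one in Myc_KO, 2 of 3 against 4 of 7. Of the 7 salvage enzymes, 4 fell and 1 rose in Myc_KO, 3 fell and 1 rose in Max_KO, and 5 fell and 1 rose in double_KO. Among all genes 18.7%, 16.7% and 19.0% were called lower in these comparisons, and 22.3%, 21.5% and 23.4% higher. The median changes of salvage were -0.50, -0.38 and -0.58 on the log2 scale. Uck2, a uridine-cytidine kinase, showed the largest fall of all 35 in Max_KO, whose libraries are the same under both readings. In Myc_KO its fall was the largest by the description alone. By the titles its change in Myc_KO was -1.16, against -1.285 for Impdh1 and -1.279 for Nme2. The gene (chr1:167222883-167285320) was at 123 and 109.8 RPM in the controls, 50.1 and 47.7 RPM in the libraries labelled Myc_KO, 50.4 and 36.9 RPM in Max_KO and 71.6 and 56.5 RPM in those labelled double_KO. The highest knock-out library, at 71.6 RPM, lay well below the lower control, at 109.8 RPM. The changes were -1.25 ± 0.168, -1.43 ± 0.168 and -0.87 ± 0.168 (adjusted p = 0.00103, 0.000778 and 0.00475). Uck1, the other kinase of this kind, was at 73.3 and 69 RPM in the controls, 64.2 and 64.4 RPM in the libraries labelled Myc_KO, 65.4 and 58.9 RPM in Max_KO and 54.7 and 57.3 RPM in those labelled double_KO, and its fall passed the test in double_KO (-0.34 ± 0.0949, adjusted p = 0.0203; 0.103 with the titles' groups).

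The purine phosphoribosyltransferases fell as well. Aprt, which recovers adenine, was at 102 and 102 RPM in the controls, 66.2 and 46 RPM in the libraries labelled Myc_KO, 63.7 and 58.9 RPM in Max_KO and 68.1 and 56.5 RPM in those labelled double_KO. It was lower in every knock-out library, with changes of -0.89 ± 0.17, -0.74 ± 0.17 and -0.72 ± 0.17 (adjusted p = 0.00445, 0.0106 and 0.0107). Hprt, which recovers hypoxanthine and guanine, was at 193 and 171 RPM in the controls, 136 and 121 RPM in the libraries labelled Myc_KO, 158 and 123 RPM in Max_KO and 136 and 109 RPM in those labelled double_KO. It fell in Myc_KO and double_KO (adjusted p = 0.0301 and 0.0164) and its change of -0.38 ± 0.151 in Max_KO had an adjusted p of 0.0788, or 0.0408 with the titles' groups.

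The deoxynucleoside kinases went in opposite directions. Tk1 (chr11:117815526-117826092), the thymidine kinase of dividing cells, was at 183 and 184 RPM in the controls, 113 and 91.8 RPM in the libraries labelled Myc_KO, 129 and 122 RPM in Max_KO and 122 and 97.6 RPM in those labelled double_KO. Dck (chr5:88764996-88783281), which phosphorylates deoxycytidine and the purine deoxynucleosides, was at 61.3 and 62.1 RPM in the controls, 94 and 90.8 RPM in the libraries labelled Myc_KO, 86.1 and 82.7 RPM in Max_KO and 93.2 and 82.4 RPM in those labelled double_KO. For both genes the controls agreed closely and no knock-out library overlapped them. Tk1 changed by -0.85 ± 0.133, -0.55 ± 0.133 and -0.75 ± 0.133 on the log2 scale (adjusted p = 0.00188, 0.0134 and 0.00324), and Dck by 0.58 ± 0.0929, 0.45 ± 0.0929 and 0.51 ± 0.0929 (adjusted p = 0.00204, 0.00691 and 0.00386). Dguok, the mitochondrial deoxyguanosine kinase, ranged from 17.2 to 24.1 RPM in the knock-out libraries against 16.0 and 17.5 RPM, and no comparison called it.

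Of the 8 enzymes of dNTP supply, Tyms, Dut and Dctpp1 fell and Rrm2b and Samhd1 rose in each of the 3 comparisons. This left Rrm1, Rrm2 and Dtymk uncalled by the description. Among all genes 16.7% to 19.0% were called lower and 21.5% to 23.4% higher. Rrm2b (chr15:37923952-37961318), the alternative small subunit of ribonucleotide reductase, which serves cells outside S phase and after DNA damage, was at 8.45 and 10.3 RPM in the controls, 22.6 and 28.4 RPM in the libraries labelled Myc_KO, 22.8 and 29.1 RPM in Max_KO and 25.8 and 32.8 RPM in those labelled double_KO. The lowest knock-out library held over 2-fold the level of the higher control. The rises of 1.44 ± 0.198, 1.46 ± 0.198 and 1.64 ± 0.198 (adjusted p = 0.00112, 0.00132 and 0.000712) were the largest among the 35.

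No change of the subunits that work in S phase passed the test by the description. Rrm1, the large subunit, was at 289 and 288 RPM in the controls, 347 and 316 RPM in the libraries labelled Myc_KO, 342 and 351 RPM in Max_KO and 348 and 288 RPM in those labelled double_KO. Rrm2, the S-phase small subunit, was at 289 and 276 RPM in the controls, 355 and 311 RPM in the libraries labelled Myc_KO, 326 and 303 RPM in Max_KO and 353 and 303 RPM in those labelled double_KO. Rrm2 was above both controls in all 6 knock-out libraries, with changes of 0.24 ± 0.108, 0.16 ± 0.108 and 0.21 ± 0.108 and adjusted p-values of 0.114, 0.286 and 0.144; with the titles' groups it was called higher in double_KO (adjusted p = 0.0094), as was Rrm1 (0.0231), which was also called higher in Max_KO (0.0233).

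Samhd1 (chr2:157097533-157135265), the triphosphohydrolase that breaks dNTPs down, was at 449 and 400.3 RPM in the controls, 717 and 614 RPM in the libraries labelled Myc_KO, 738 and 679 RPM in Max_KO and 553 and 675 RPM in those labelled double_KO. It rose by 0.65 ± 0.13, 0.74 ± 0.13 and 0.53 ± 0.13 (adjusted p = 0.00565, 0.00355 and 0.0132). Dctpp1 (chr7:127256959-127260709), a pyrophosphatase that removes modified and excess deoxycytidine triphosphate, was at 42.8 and 41.4 RPM in the controls, 26.2 and 24.2 RPM in the libraries labelled Myc_KO, 20.3 and 19.4 RPM in Max_KO and 26.5 and 25 RPM in those labelled double_KO. It fell in all 3 comparisons, by 0.74 ± 0.111, 1.08 ± 0.111 and 0.71 ± 0.111 (adjusted p = 0.00161, 0.000533 and 0.00199). Both breakdown enzymes were thus clear of the controls in every knock-out library, one above and the other below.

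Tyms, which makes thymidine monophosphate, was at 150.1 and 118 RPM in the controls, 97.5 and 87.9 RPM in the libraries labelled Myc_KO, 102 and 88.3 RPM in Max_KO and 95 and 75.2 RPM in those labelled double_KO. Dut, the dUTPase that keeps uracil out of DNA and supplies Tyms with its substrate, was at 169.5 and 151 RPM in the controls, 122 and 109 RPM in the libraries labelled Myc_KO, 109 and 102 RPM in Max_KO and 124 and 101 RPM in those labelled double_KO. Neither gene overlapped between knock-out and control libraries. Tyms changed by -0.52 ± 0.156, -0.49 ± 0.156 and -0.66 ± 0.156 (adjusted p = 0.0278, 0.0385 and 0.0113) and Dut by -0.47 ± 0.121, -0.60 ± 0.121 and -0.52 ± 0.121 (adjusted p = 0.0158, 0.00646 and 0.0107). Dtymk, the thymidylate kinase that follows them, was lower in all 6 knock-out libraries (66.4 to 81.5 RPM against 89.8 and 83.3 RPM), with adjusted p-values of 0.184, 0.154 and 0.144 by the description and 0.015 in Myc_KO by the titles.

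Of the interconversion kinases, Nme1 and Nme2 are nucleoside diphosphate kinases and Cmpk1 phosphorylates uridine and cytidine monophosphates. Nme1 was at 127 and 112 RPM in the controls, 96.6 and 64.8 RPM in the libraries labelled Myc_KO, 96.6 and 81.6 RPM in Max_KO and 101 and 78.5 RPM in those labelled double_KO, and fell in Myc_KO (-0.59 ± 0.2, adjusted p = 0.0444), and with the titles' groups in Max_KO too (0.0279). Nme2 was at 380.2 and 322 RPM in the controls, 286 and 129 RPM in the libraries labelled Myc_KO, 292 and 274 RPM in Max_KO and 276 and 161 RPM in those labelled double_KO. The 129 and 161 RPM stand apart and are the 2 libraries titled as Myc knock-outs. By the description no comparison called Nme2 (adjusted p = 0.0851, 0.527 and 0.133), and by the titles it fell by 1.28 ± 0.122 in Myc_KO (adjusted p = 0.000145). Nme1 and Nme2 are neighbours of similar sequence, and a read-through gene over both (Gm20390) takes part of the reads, so their split is uncertain. The sum over the 3 was 655 and 555 RPM in the controls, 508 and 280.0 in the libraries labelled Myc_KO, 507 and 479 in Max_KO, and 512 and 349 in those labelled double_KO, all below the controls. Nme2 took 53.97% to 58.03% of that sum in 6 libraries and 46.03% and 46.20% in the 2 titled as Myc knock-outs. Cmpk1 was above both controls in all 6 (116 to 134 RPM against 114 and 101 RPM) and no comparison called it.

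Within 4 of 6 related pairs (66.7%), the ratio of the levels did not overlap between knock-out and control libraries. Over every pair that can be formed from the 12324 tested genes above 0 RPM in all libraries, the ratio did not overlap in 54.2%, so such a count is near the background and the pairs serve as a description of the levels. Compared per kilobase, Rrm2b stood at 0.0141 and 0.0180 of Rrm2 in the controls, and between 0.0306 and 0.0520 without Myc or Max. The Uck2 to Uck1 ratio was 0.712 and 0.674 in the controls against 0.266 to 0.554, and the Tk1 to Dck ratio 6.39 and 6.32 against 2.16 to 3.19. Ctps2 stood at 0.382 and 0.387 of Ctps in controls, with 0.447 to 0.755 among the knock-outs. In these 4 pairs no knock-out library overlapped the controls, which with 6 libraries against 2 gives the smallest two-sided exact permutation p possible, 0.0714, or 0.107 adjusted over the 6 pairs tested. The ratios Impdh1 to Impdh2 (0.0941 to 0.131 against 0.122 and 0.118) and Prps2 to Prps1 (0.561 to 0.795 against 0.576 and 0.540) overlapped, with exact permutation p = 0.5 and 0.143. A ratio within a library does not depend on how libraries are scaled to each other.

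**Figure D4:**
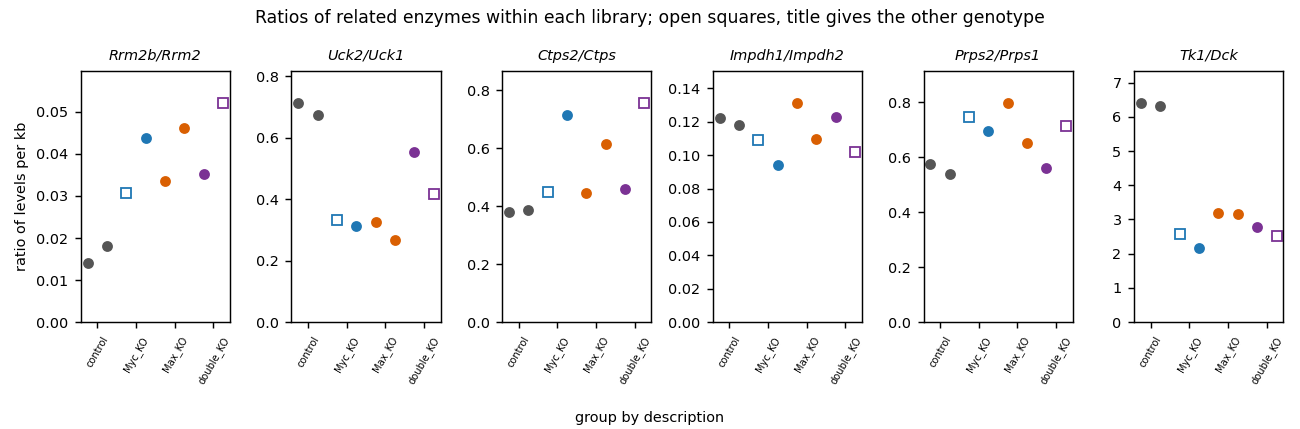
Ratio of 6 pairs of related enzymes per kilobase of exon in each of the 8 libraries by the description's groups; open squares mark the 2 libraries whose title gives another genotype. Rrm2b over Rrm2 and Ctps2 over Ctps are higher and Uck2 over Uck1 and Tk1 over Dck lower in all 6 knock-out libraries.

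Between the knock-outs, no enzyme was called by the description in any of 3 comparisons, at a background of 0.104% of all genes for Max_KO against Myc_KO, 0.209% for double_KO against Max_KO and 0.0% for double_KO against Myc_KO. At an unadjusted p under 0.05 the counts were 2, 2 and 0 of the 35 enzymes, against 11.4%, 9.2% and 10.6% of all genes, so the enzymes stood no higher than the background. By the description, Myc_KO and double_KO each hold a library titled as the other genotype. If the titles are right, both groups mix the 2 genotypes, and double_KO against Myc_KO sets like mixtures against each other. The absence of calls by the description therefore cannot show that the knock-outs are alike. As values only, Dctpp1 was lowest in Max_KO, by 0.34 on the log2 scale against Myc_KO (95% interval -0.60 to -0.09, adjusted p = 0.334), and was 0.37 higher in double_KO than in Max_KO (0.12 to 0.63, adjusted p = 0.377). Uck2 was 0.56 higher in double_KO than in Max_KO (0.17 to 0.95, adjusted p = 0.381). With the titles' groups, Nme2, Atic, Tk1 and Impdh1 were higher in Max_KO than in Myc_KO, by 0.97, 0.48, 0.41 and 0.58 (adjusted p = 0.00777, 0.0212, 0.0329 and 0.0458, with 2.44% of all genes called higher). Nme2, Atic and Gart were higher in double_KO than in Myc_KO, by 0.96, 0.60 and 0.53 (adjusted p = 0.0201, 0.0266 and 0.0437, with 0.418% of all genes called higher).

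The readings also differ in how far libraries of a group lie apart. The median absolute log2 difference between the 2 libraries of a group, over the 35 enzymes, was 0.133 in the controls and 0.102 in Max_KO. It was 0.192 in Myc_KO and 0.287 in double_KO by the description, and 0.119 and 0.0653 by the titles. Over all genes tested it was 0.195 and 0.175 by the description and 0.194 and 0.179 by the titles.

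For 7 enzymes the change with both genes lost was smaller than the sum of the changes with each lost. The interaction tested was the log2 level in double_KO minus that in Myc_KO and that in Max_KO, plus that in control. By this test positive values were called for 4 of the 35 enzymes, Uck2, Aprt, Tk1 and Dctpp1, which fell. Negative values were called for 3 that rose, Dck, Rrm2b and Samhd1. Among all genes 8.87% were called positive and 12.0% negative, so by the description both counts were near the background. With Uck2, for example, the single losses were -1.25 and -1.43 and the loss of both was -0.87 (interaction 1.81 ± 0.238, adjusted p = 0.00438). With the titles' groups a positive interaction was called for 19 enzymes, Uck2, Aprt, Tk1 and Dctpp1 among them (all genes 12.4%). The 3 negative ones were then Rrm2b, Samhd1 and Ctps2 (-0.52, adjusted p = 0.0491; all genes 15.0%), while that of Dck was -0.34 with an adjusted p of 0.0696.

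Genes that feed or follow these enzymes were read from lists set by pathway, whose counts stand against the shares of all genes called lower and higher: 18.7% and 22.3% in Myc_KO, 16.7% and 21.5% in Max_KO, and 19.0% and 23.4% in double_KO. Of 7 enzymes of the pentose phosphate pathway, the source of ribose phosphate, Tkt, Pgd and Pgls fell in each comparison and none rose (1 rose in Max_KO with the titles' groups). Tkt, transketolase, had a control level of 493 ± 12.6 RPM (SD, n = 2), and dropped to 294 ± 45.7 RPM (Myc_KO), 303 ± 31.5 RPM (Max_KO) and 285 ± 43.2 RPM (double_KO). Of 16 folate and serine enzymes tested, 3 fell and 1 rose in Myc_KO, 3 fell in Max_KO, and 1 fell and 1 rose in double_KO, which for the falls in Myc_KO and Max_KO is about the share of all genes. By the titles 4 fell and 1 rose in Myc_KO, 5 fell in Max_KO, and 1 fell and 1 rose in double_KO. Phgdh, which starts serine synthesis, fell by 0.69, 1.22 and 0.50 on the log2 scale (adjusted p = 0.011, 0.00122 and 0.0384), and Slc19a1, the reduced folate carrier, fell in Myc_KO and Max_KO (adjusted p = 0.00565 and 0.0039) and had an adjusted p of 0.391 in double_KO, and of 0.0785 in Myc_KO with the titles' groups.

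Of 13 further interconversion kinases tested, the rises and falls numbered 2 and 4 in Myc_KO, 2 and 4 in Max_KO, and 1 and 5 in double_KO, and with the titles' groups 1 and 4, 2 and 4, and 2 and 3. Cmpk2, a mitochondrial kinase known as interferon-induced, rose from 7.09 ± 1.13 RPM to 23.9 ± 0.0292, 25.8 ± 6.99 and 30.9 ± 0.394 RPM. Nme4, the mitochondrial nucleoside diphosphate kinase, fell from 12.8 ± 2.11 RPM to 4.11 ± 1.47, 5.04 ± 1.12 and 4.78 ± 1.77 RPM. Of 22 further salvage and breakdown genes tested, the rises numbered 4 and the falls 5 in Myc_KO, 6 and 3 in Max_KO, and 7 and 4 in double_KO; with the titles' groups they numbered 6 and 7, 4 and 4, and 4 and 3. Among these, Uprt rose by 2.02, 1.78 and 1.96 on the log2 scale (adjusted p = 0.00186, 0.00367 and 0.00218), the nucleotidase Nt5c3 rose by 0.74, 0.33 and 0.48 (0.00116, 0.0365 and 0.00703; 0.083 in Max_KO with the titles' groups), and the nucleotidase Nt5c fell by 0.94, 0.75 and 1.01 (0.00276, 0.00819 and 0.00206).

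Of 7 nucleoside and nucleotide transporters, the rises and falls numbered 1 and 1 in Myc_KO, 1 and 0 in Max_KO, and 2 and 1 in double_KO, or 2 and 3, 1 and 1, and 1 and 1 with the titles' groups. Slc28a2, a concentrative nucleoside transporter, rose in all 3 comparisons, from 39.6 ± 2.92 RPM to 69.4 ± 2.58, 59.9 ± 1.1 and 65.3 ± 6.62 RPM. Slc25a36, a mitochondrial pyrimidine nucleotide carrier, fell in Myc_KO and double_KO (adjusted p = 0.0126 and 0.019). Of 20 genes of S phase and mitosis, 5 rose and 1 fell in Myc_KO, 4 and 1 in Max_KO, and 3 and 1 in double_KO; with the titles' groups 3 rose and 3 fell in Myc_KO, 5 and 1 in Max_KO, and 8 and 1 in double_KO. By the description the share that rose was near or below that of all genes in each comparison. Pola1, the catalytic subunit of DNA polymerase alpha, rose by 0.83, 0.84 and 0.78 (adjusted p = 0.000654, 0.000795 and 0.000863), and Cdk1, the kinase of mitotic entry, fell by 0.58 and 0.44 in Myc_KO and Max_KO (adjusted p = 0.00767 and 0.0262) and had an adjusted p of 0.0523 in double_KO, or 0.0496 with the titles' groups.

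Several measures of the libraries moved with the groups. Totals ran from 14.88 to 17.91 M estimated reads, and the ratio of total to the authors' effective size was 1.092 and 1.043 in the controls against 0.956 to 0.995 in the knock-out libraries. The summed level of 8 B cell markers was 5115 to 5228 RPM in the controls against 6284 to 7609 RPM without Myc or Max, with none at 0, so the labelled cell type's markers were present in every library. The summed level of 20 genes of S phase and mitosis was 4929 to 5227 RPM in controls against 5045 to 5881 RPM without Myc or Max. The 9 T cell markers summed to 318.5 to 363 RPM against 188 to 302.5 RPM, and without Thy1 to 40.1 to 43.9 against 74.1 to 152 RPM. The 5 NK cell markers in the table summed to 4.61 to 5.40 RPM against 7.0 to 29.7 RPM, with 2 at 0 in both controls, the 5 myeloid markers to 5.92 to 8.55 RPM against 10.6 to 30.4 RPM, and the 6 plasma cell markers to 1206 to 1259 RPM against 574 to 1101 RPM. Mitochondrially encoded genes took 4.93% and 5.69% of control reads, and 2.21% to 2.96% in libraries of the knock-outs. The part of these measures in the changes of the enzymes was not tested.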

How the data were processed

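RNA of 8 libraries was sequenced, and the authors deposited 1 table of log2 values for 15681 genes, ranging from -5.23 to 14.51. Per the submitters' processing notes, CASAVA 1.8, cutadapt, RSEM 1.2.3 and the build GRCm38 were used. For the annotation, strand setting and scaling tool, nothing is given in the sources used here. Read from the values, each is log2 of estimated reads plus 0.5, per 1000000 of an effective library size. Estimated reads were recovered by taking each library's lowest value as 0 reads; all other values were then multiples of 0.01 read within 1.2e-08. They are not whole, so no count test was run. Levels are reads per 1000000 of effective size (RPM).

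The log2 values were fitted with limma 3.58.1 (trended eBayes, all 8 libraries, 4 groups from the description, 4 residual degrees of freedom), two-sided, for genes that reached 1 RPM in 2 or more libraries. Benjamini-Hochberg adjustment ran over the 12441 genes tested, with a threshold of 0.05. The fit was tested on simulated data. Ratios within pairs were compared by exact permutation. Symbols and coordinates came from GENCODE vM21 by gene identifier (59 genes without a symbol), and promoter windows from RefSeq. The enzymes and the other lists were chosen with earlier results of these data known. Every enzyme is named; of other lists, up to 4 called genes with the lowest adjusted p could be named. Alternatives varied the filter, scaling, offset, spread estimate, labels, replicate block, number series and each library.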

Additional observations from a re-analysis of the deposited data

Results flagged for a closer look

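For 7 of the 35 enzymes the test of the interaction between Myc loss and Max loss passed the threshold (limma, adjusted p over all genes). For these the change with Max loss differed between cells with and without Myc. Of all genes tested, 8.87% passed with a positive and 12.0% with a negative value. By the description the enzymes' counts, 4 positive and 3 negative, were near these shares. The interaction, on the log2 scale, was 1.809 for Uck2 (adjusted p = 0.00438), 1.114 for Dctpp1 (0.00519), 0.912 for Aprt (0.032) and 0.646 for Tk1 (0.0439), all lower in each knock-out than in control. It was -0.860 for Samhd1 (0.0162), -1.261 for Rrm2b (0.0185) and -0.527 for Dck (0.0268), all higher in each knock-out. Leaving out single libraries changed how many passed: positive interactions then numbered 2 to 8 and negative ones 1 to 3. These values rest on the description's groups, which the Max level goes against in 2 libraries. With the titles' groups the interaction of Dck was -0.338 (limma, adjusted p = 0.0696) and did not pass, and the other 6 did. Of the 35 enzymes, 19 then passed with a positive and 3 with a negative value. Of all genes, 12.4% and 15.0% did, so the positive count was then above the background.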

How the results depend on the processing

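Counts of enzymes called are given as lower and higher against control, in the order Myc_KO, Max_KO and double_KO; they were 11 and 5, 9 and 3, and 11 and 4. Scaled to the same total the higher counts were 10, 9 and 9; without the trend 3 were higher in Myc_KO; fitted on the compared groups alone 6 were higher in Max_KO. With the titles' groups 7 were higher in Max_KO and 10 in double_KO. Without the disputed libraries 6 were higher in Max_KO and 6 lower in double_KO. With the number series as a term 3 were lower in Max_KO, and 0 lower and 0 higher in double_KO. That term rests on the 2 Max_KO libraries alone, so the fit has little precision for double_KO. Leaving out each library gave 4 to 13 lower and 3 to 5 higher, 2 to 10 and 2 to 4, and 4 to 12 and 2 to 5. Between knock-outs, counts were 0 except with the titles' groups (4 higher in Max_KO than in Myc_KO, 3 higher in double_KO than in Myc_KO) and without the disputed libraries (1 higher in Max_KO than in Myc_KO). Interactions, 4 positive and 3 negative, became 7 positive with quantile normalization, 19 with the titles' groups, 13 without the disputed libraries and 2 without the trend; 5 were negative at the same total, and leaving out each library gave 2 to 8 and 1 to 3. The cause was not tested in each of these cases.

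The 5 further fits used the titles' groups and were all chosen after seeing the data. With the number series as a term, 18 were lower in Myc_KO, 14 lower and 9 higher in Max_KO, 12 higher in double_KO, 5 higher in Max_KO than in Myc_KO, 6 higher in double_KO than in Myc_KO, and 19 interactions were positive and 5 negative. At the same total, 9, 10 and 13 were higher than control, 2 in Max_KO and 3 in double_KO than in Myc_KO, and 17 interactions were positive. With quantile normalization, 19 were lower in Myc_KO, 16 lower in Max_KO, 7 higher in double_KO, 4 higher in Max_KO and 3 higher in double_KO than in Myc_KO, and 19 interactions were positive. Leaving out each control gave 13 to 15 lower and 3 to 4 higher, 8 to 10 and 3, and 4 to 9 and 3 to 6, with 2 higher in Max_KO and 0 higher in double_KO than in Myc_KO, 11 to 17 positive interactions and 1 to 2 negative. The change of Gart in Myc_KO, 0.01 by the description, was -0.225 with the series as a term and -0.276 with quantile normalization, and that of Atic in double_KO, -0.13, was 0.273 at the same total. Enzymes above both controls in all knock-out libraries, 8, became 13 at the same total and 5 with quantile normalization, and 8 to 11 without each library; those below ranged from 16 to 17 without each library.

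The replicate numbers are shared by all groups, and same-numbered libraries deviated together little (correlations from -0.108 to 0.263 over 6 pairs of groups). The highest was between Myc_KO and double_KO, whose same-numbered libraries share a titled genotype. With 2 libraries a group these values cannot exclude a pairing, and the main fit used none. With the replicate block, 8 were higher in Myc_KO and 5 in Max_KO, 13, 12 and 15 were lower, 6 were higher in double_KO, and 10 interactions were positive and 3 negative. Depth limited none of the enzymes' levels, the lowest resting on 136 estimated reads; the 2 libraries a group limit the precision.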
